A study of Mus musculus with 5 samples.

Results

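The day 5 (D5) wound of 2-year-old mice was compared with unwounded back skin of the same age (D0), with 1 miRNA array on each side. Both samples were total RNA from back skin of female mice, and the wounds were full-thickness punch wounds made in the telogen, or resting, phase of the hair cycle. The series holds 5 arrays, and those of aged D3 and D7 wounds are set beside D5 where they bear on it. An array of unwounded 8-week-old skin entered the normalization only. Every array was hybridised in 1 colour (Cy3) by a service provider. The labels do not give the strain, the number of mice behind an array or whether RNA was pooled. There are therefore no replicates, the text gives no test and no p-value for any difference between D5 and D0.

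Each array carries 1900 mouse miRNAs, every one on 2 spots. A miRNA was called bright, and is described here, when the mean scanned intensity of its spots exceeded 2 times the 95th percentile of intensity among 4 empty spots on at least 1 of the arrays compared. This held for 296 of the 1900 miRNAs, of which 204 were bright on both arrays, 86 on D5 only and 6 on D0 only. The level to pass was 211 units at D0 and 122 units at D5, because the empty spots of the D0 array were brighter, with a 95th percentile of 105 against 61.1. The D5 intensity of 64 of the 86 miRNAs bright on D5 only was not above the D0 level, and 7 of the 86 were not detected at D0, that is, not above this percentile on its array. Passing on D5 only is therefore no sign of a higher level there. The bright miRNAs nearest to the limit were miR-7069-5p, miR-676-3p and miR-669a-3-3p, with scanned intensities from 168 to 122, from 213 to 95.8 and from 113 to 124 between D0 and D5. Just outside it lay miR-3110-3p, miR-485-3p and miR-5122, with 173 and 122, 124 and 122, and 128 and 121.

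A miRNA is a short RNA that guides an Argonaute protein to messenger RNAs that pair with its seed, the bases near its 5′ end, and this lowers the translation or stability of those messages. miRNAs with one seed share many predicted targets, and miRNAs made from one primary transcript are often present together. In a healing wound, leukocytes enter the tissue, keratinocytes migrate and multiply to close the epidermis, and fibroblasts and vessels form new dermis, so that a wound and intact skin differ in their cells as well as in their transcription. In such bulk tissue, fewer cells of a type and less RNA per cell cannot be told apart.

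The mature sequences on which the comparison turns are shown here with the seed (bases 2 to 8, counted from the 5′ end) in capitals. They are the targets named on the array, and those printed matched the name and sequence of a mature miRNA in RefSeq (GRCm38.p6), as 238 of the 296 bright miRNAs and 1610 of all 1900 did. The first set holds miRNAs that were higher at D5. It begins with those of leukocytes and repair and with miR-30c-1-3p of the miR-30 family. Those rich in G and C follow, then members of the Dlk1-Dio3 imprinted cluster.
miR-223-3p: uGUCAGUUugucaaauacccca
miR-142a-5p: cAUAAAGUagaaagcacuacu
miR-155-5p: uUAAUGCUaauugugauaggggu
miR-21a-5p: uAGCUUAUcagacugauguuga
miR-30c-1-3p: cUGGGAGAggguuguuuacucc
miR-762: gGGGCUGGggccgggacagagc
miR-2137: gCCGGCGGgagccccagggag
miR-2861: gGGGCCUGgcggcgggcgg
miR-5126: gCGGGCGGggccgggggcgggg
miR-6968-5p: aGGGGGCGagggggcccugugg
miR-665-3p: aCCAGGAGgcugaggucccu
miR-541-5p: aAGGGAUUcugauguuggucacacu
miR-127-3p: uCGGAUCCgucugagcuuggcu

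The second set holds miRNAs that were lower at D5, with the miR-200 family first. It splits into a pair with the seed AACACUG and a trio with the seed AAUACUG. The others are miR-183-5p, a pair from the Hox clusters, muscle miRNAs and miR-7028-5p, whose ratio was the second lowest.
miR-200a-3p: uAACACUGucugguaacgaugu
miR-141-3p: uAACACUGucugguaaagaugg
miR-200b-3p: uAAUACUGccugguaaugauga
miR-429-3p: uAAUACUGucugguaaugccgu
miR-200c-3p: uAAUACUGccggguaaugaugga
miR-183-5p: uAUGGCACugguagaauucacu
miR-10a-5p: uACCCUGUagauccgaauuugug
miR-10b-5p: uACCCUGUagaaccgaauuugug
miR-206-3p: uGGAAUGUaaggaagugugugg
miR-133b-3p: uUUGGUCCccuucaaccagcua
miR-133b-5p: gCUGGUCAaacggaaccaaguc
miR-7028-5p: uGGGCUGAggcuugggucaggag

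The third set shares the seed AGCAGCA of the miR-15/16 family, and its members lay on both sides of 1.
miR-195a-5p: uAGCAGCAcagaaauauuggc
miR-497a-5p: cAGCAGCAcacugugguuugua
miR-16-5p: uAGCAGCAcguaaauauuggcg
miR-322-5p: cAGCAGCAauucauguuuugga

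After normalization, 3 miRNAs of leukocytes, miR-21a-5p and single miRNAs rich in G and C were at least 2-fold higher on the D5 array. The 3 leukocyte miRNAs passed the brightness limit on D5 alone. Bright miRNAs of the epithelial miR-200 family, of skeletal muscle and of the miR-378 family were lower. Ratios of D5 over D0 are linear ratios after background correction, quantile normalization over the 5 arrays and averaging of the spots. Of the 296 bright miRNAs, 31 were at least 2-fold higher at D5 (10.5%) and 25 at least 2-fold lower (8.45%), while 240 lay between. The median ratio was 1.07, with 136 miRNAs below 1, 157 above 1 and 3 at exactly 1, which are among the brightest spots and are tied by the quantile step. Restricted to the 204 that passed on both arrays, 16 were higher (7.84%) and 20 lower (9.8%). Of the 31 higher miRNAs 15 passed on D5 alone, and of the 25 lower ones 5 passed on D0 alone. Over all 1900 miRNAs there were 31 higher (1.63%) and 26 lower (1.37%). In the table of processed values from the authors, 56 bright miRNAs were at least 2-fold higher (18.9%) and 38 lower (12.8%).

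**Figure D1:**
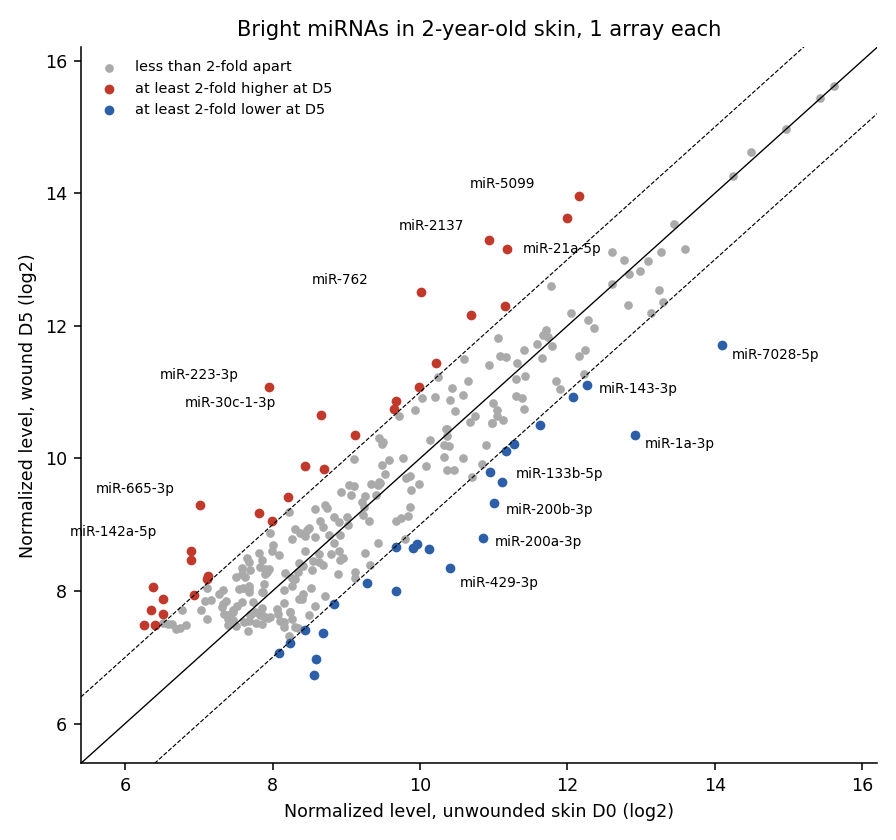
Normalized log2 level of each of the 296 bright miRNAs at D0 (x axis) and D5 (y axis), 1 point a miRNA and 1 array on each axis. The solid line marks equal levels and the dashed lines 2-fold differences. Red points are the 31 miRNAs at least 2-fold higher at D5 and blue points the 25 at least 2-fold lower, with miR-223-3p farthest above the line and miR-1a-3p farthest below it.

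The only error that these arrays hold is that between repeat spots. The SD of a log2 ratio from repeat spots was 0.15 for the mean of the pair, which covers the spread within an array and none between mice. Both spots passed 2-fold on their own for 26 of the 31 higher and 19 of the 25 lower miRNAs. The spots of 30 bright miRNAs lay on opposite sides of 1. They were at least 2-fold apart for miR-7239-3p, with ratios of 1.07 and 2.17, and for miR-182-5p, with 2.06 and 0.42, so that no ratio can be read for these miRNAs.

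The split between higher and lower miRNAs moved with the scaling. It was 14 higher and 42 lower without normalization between arrays, 18 and 37 with scaling to the 75th percentile, 11 and 48 with scaling to the probes for 5S ribosomal RNA, and 5 and 88 with scaling to the spike calibration controls. With the scanned intensities as deposited it was 13 and 47. These settings moved the median of the bright miRNAs by -0.23, -0.13, -0.28, -0.64 and -0.26 on the log2 scale, and scaling to the median of all miRNAs moved it by 0.18, so that a ratio near 1 has no settled direction. The scanned intensity was lower at D5 for 58.8% of the bright miRNAs. For the control probes the median scanned ratio of D5 over D0 was 0.965 for 5S, 1.35 for the spikes and 0.593 for the empty spots. Each of the 31 higher miRNAs stayed above 1 and each of the 25 lower ones below 1 under every scaling run and with the authors' processed values. Past 2-fold under all of them were 5 of the 31 and 15 of the 25.

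**Figure D2:**
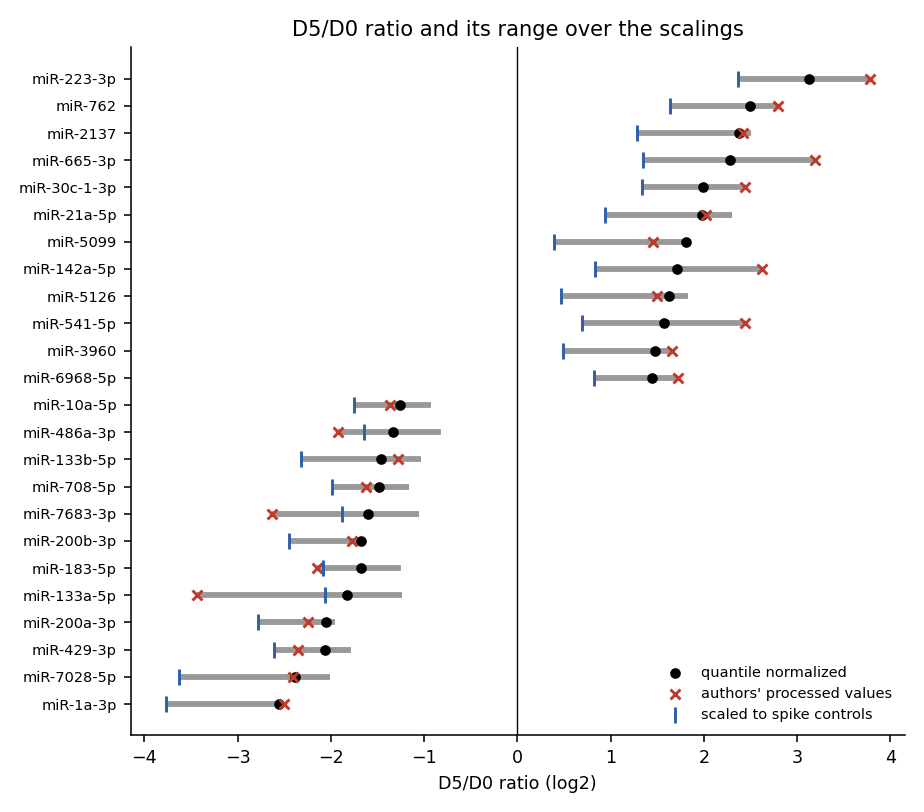
Log2 ratio of D5 over D0 (x axis) of the 12 highest and 12 lowest bright miRNAs detected on both arrays, 1 row each. The black point is the quantile-normalized ratio, the red cross the ratio of the authors' processed values, the blue bar the ratio scaled to the spike controls, and the grey line spans every scaling run. No line crosses 0, and the spike controls gave the lowest ratio of each of the 12 higher miRNAs.

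The tissue label was checked against marker miRNAs. Some miRNAs of keratinocytes, muscle, endothelium, mural cells and fibroblasts were bright on both arrays. No arm of the neuronal miR-124 and miR-9 was bright, 1 of their 4 arms was detected at D5 and 0 at D0, and neither arm of the liver miRNA miR-122 was detected. From D0 to D5 the summed scanned intensity of the 14 keratinocyte arms went from 39292 to 17770 and that of the 7 skeletal muscle arms from 35172 to 7894. It went from 1144 to 2572 over the 8 leukocyte arms, from 2419 to 1460 over the 5 erythroid arms, from 3174 to 2299 over the 2 endothelial arms, from 10251 to 3846 over the 4 mural arms and from 8051 to 7551 over the 5 fibroblast arms. Before normalization the leukocyte sum was thus higher at D5 and the other sums lower. These sums are not scaled between arrays, and a few bright arms dominate them, such as miR-205-5p among the keratinocyte arms, with 19980 units at D0 and 11620 at D5. The part of a changed cell mixture in the ratios of single miRNAs was not tested.

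The leukocyte list (miR-223, miR-142, miR-150 and miR-155) has 9 arms on the array, of which 4 were bright and 3 were at least 2-fold higher at D5, with a median ratio of 2.57. Over all 296 bright miRNAs, 31 (10.5%) were at least 2-fold higher. Only miR-150-5p was bright on both arrays. The other 3 passed on D5 alone, which favours high ratios, and the count is no support for a difference. miR-223-3p, which is abundant in neutrophils and other myeloid cells, had scanned intensities of 197 at D0 and 1338 at D5. Its ratio was 8.76, with 9.04 and 8.48 from its spots, and no bright miRNA had a higher one. Over the scalings it ranged from 5.14 to 13.7. miR-142a-5p, which is made throughout the blood lineages, went from 121 to 275 units with a ratio of 3.28. miR-155-5p, which activated lymphocytes and macrophages induce, went from 123 to 177 units with a ratio of 2.01, and its spots gave 1.73 and 2.33. miR-150-5p, a miRNA of mature lymphocytes, had 372 and 512 units and a ratio of 1.48. All 4 stayed above 1 under every scaling, with a lowest value of 1.04 for miR-150-5p.

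The genes of these miRNAs lie apart from each other. miR-223-3p is at chrX:96242884-96242905 on the plus strand, within the bounds of the long non-coding RNA F630028O10Rik. miR-142a-5p is at chr11:87756867-87756887 and miR-155-5p at chr16:84714143-84714165, both on the plus strand, the latter within the host transcript Mir155hg. All positions are on GRCm38.p6, from a table that gives the bounds of genes and not their exons.

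The inflammation and repair list holds miR-21, miR-132, miR-212 and miR-146. Of its 12 arms 4 were bright and 1 of these was at least 2-fold higher. miR-21a-5p, a miRNA induced in many kinds of injury, had 2057 units at D0 and 5253 at D5 and a ratio of 3.95, with 4.04 and 3.86 from its spots. It maps to chr11:86584120-86584141 on the minus strand, within the bounds of Vmp1. miR-146a-5p and miR-146b-5p, which dampen NF-kB signalling, were on the other side of 1, with 0.744 and 0.647. Their intensities were 1810 and 925 for miR-146a-5p and 596 and 369 for miR-146b-5p. miR-132-3p gave 1.06, which is within the spread of the spots. The list thus held 1 high ratio beside 3 near or below 1, and its median was 0.889 against 1.07 over the bright miRNAs.

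**Figure D3:**
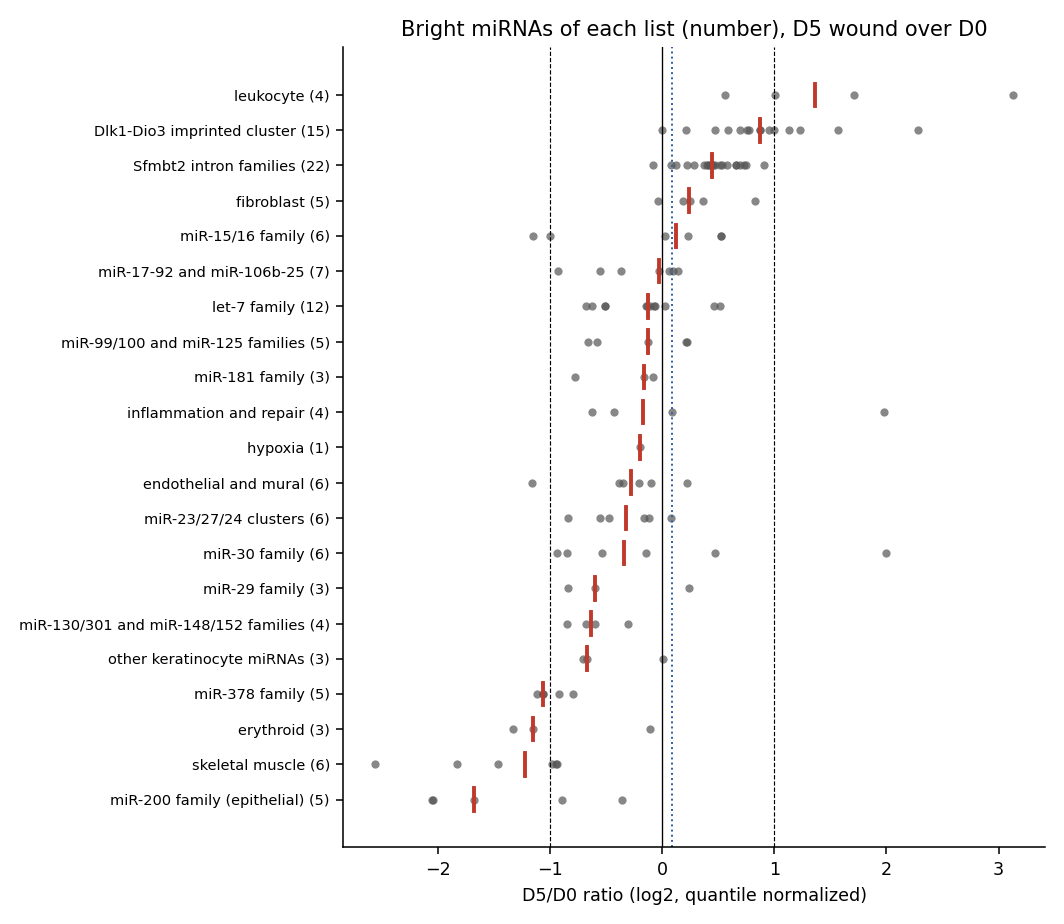
Log2 ratio of D5 over D0 (x axis) of the bright miRNAs of 21 lists, with the number of bright miRNAs in brackets. Each grey point is 1 miRNA, the red bar is the median of the list, the blue dotted line the median of all bright miRNAs (a ratio of 1.07) and the dashed lines 2-fold differences. The leukocyte list has the highest median (2.57) and the miR-200 family the lowest (0.313).

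All 5 bright members of the miR-200 family were below 1 at D5, and 3 were at least 2-fold lower. Of the 5, 4 were bright on both arrays, and miR-141-3p passed on D0 alone, which favours low ratios. Among all 296 bright miRNAs, 136 were below 1 and 25 (8.45%) at least 2-fold lower. The family keeps epithelial cells in their epithelial state by repressing Zeb1 and Zeb2. miR-200a-3p had scanned intensities of 1656 at D0 and 312 at D5. Those of miR-200b-3p were 1807 and 431 units, and those of miR-429-3p were 1106 and 233 units. These 3 miRNAs lie next to each other on the minus strand, at chr4:156054911-156054932, chr4:156055685-156055706 and chr4:156053916-156053937, and their ratios were 0.241, 0.313 and 0.240. The pair on the minus strand of chromosome 6 was less far below 1. miR-141-3p (chr6:124717917-124717938) had 224 and 115 units and a ratio of 0.536, and miR-200c-3p (chr6:124718324-124718346) had 2266 and 1210 units and a ratio of 0.779. The neighbours on chromosome 4 thus had the 3 lowest ratios, and members with one seed differed, since miR-429-3p and miR-200c-3p share AAUACUG. miR-200b-3p and miR-200c-3p differ at 2 bases along their shared length, and miR-141-3p and miR-200a-3p at 2, and signal from the near-identical partner cannot be told apart on the array. The median of the family was 0.313, or 0.294 relative to the median of all bright miRNAs, and this relative value lay between 0.258 and 0.297 over the scalings. The 5 passenger arms on the array were not bright.

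The other keratinocyte miRNAs were nearer to 1. miR-203-3p, which restrains p63 and goes with keratinocyte differentiation, had 11450 units at D0 and 3421 at D5 and a ratio of 0.614. miR-31-5p, which goes with keratinocyte growth and migration, had 2419 and 1087 units and a ratio of 0.629. miR-205-5p, a miRNA of basal keratinocytes, had 19980 and 11620 units and a ratio of 1.002, with 0.841 and 1.19 from its spots and 0.440 to 1.31 over the scalings. miR-203-3p and miR-31-5p stayed below 1 under every scaling, and the direction of miR-205-5p was not settled. Outside these lists, miR-183-5p, a miRNA best known from sensory cells, had 604 and 183 units and a ratio of 0.313. It lies at chr6:30169711-30169732 on the minus strand. miR-182-5p, its neighbour, is the miRNA whose spots disagreed.

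All 6 bright skeletal muscle miRNAs were below 1, and 3 of these were at least 2-fold lower. Of the 6, 5 were bright on both arrays. miR-133a-5p, 1 of the 3, passed on D0 alone, which favours low ratios. Over all 296 bright miRNAs, 136 were below 1 and 25 (8.45%) at least 2-fold lower. Back skin carries a thin sheet of skeletal muscle below the dermis. miR-1a-3p, which promotes muscle differentiation, had 8734 units at D0 and 850 at D5, and its ratio of 0.170 was the lowest of all bright miRNAs, with 0.187 and 0.154 from its spots. miR-133a-5p had 280 and 78.6 units and a ratio of 0.281. miR-133b-5p had 1983 and 535 units and a ratio of 0.363, with spots at 0.506 and 0.260. The remaining arms gave 0.520 for miR-133a-3p, 0.521 for miR-133b-3p and 0.505 for miR-206-3p. miR-133a-3p and miR-133b-3p differ at 1 base, so their signals cannot be told apart. Within the pair of muscle genes on chromosome 1, at chr1:20679055-20679076 for miR-206-3p and chr1:20682834-20682855 for miR-133b-3p, both on the plus strand within Lincmd1, the bright arms ran from 0.363 for miR-133b-5p to 0.521 for miR-133b-3p. The list had a median of 0.428 and was below 1 on every member under every scaling. Whether the D5 sample held as much of the muscle sheet as the D0 sample was not tested.

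The miR-378 family showed a narrow range. Its 5 members on the array were all bright, with ratios of 0.461 for miR-378a-3p, 0.477 for miR-378c, 0.479 for miR-378b, 0.527 for miR-378d and 0.575 for miR-378a-5p. miR-378a is encoded within Ppargc1b and acts in mitochondrial and lipid metabolism. The scanned intensity of miR-378a-3p was 2923 at D0 and 903 at D5, and that of miR-378a-5p, from the other side of the same precursor, 280 and 159. miR-378a-3p and miR-378c differ at 1 base, so these values are not independent of each other.

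In the blood and vessel lists the members differed. Of the erythroid miRNAs, miR-486a-5p had 439 and 201 units with a ratio of 0.450, and miR-486a-3p had 300.8 and 120.1 units with a ratio of 0.398. miR-451a, a miRNA of red cells, gave 0.927 with spots at 1.01 and 0.850. All 3 bright erythroid miRNAs were below 1 under every scaling, with a median of 0.450 and miR-451a nearest to 1, at 0.513 to 0.983. Of the 3, 2 were bright on both arrays, and miR-486a-3p passed on D0 alone, which favours low ratios. miR-144 was not detected on either array. miR-143-3p, a miRNA of vascular smooth muscle, had 4755 and 1356 units and a ratio of 0.447, while miR-145a-5p, which is made from the same transcript, had 5226 and 2346 units and a ratio of 0.765. miR-126a-3p, the endothelial miRNA encoded in Egfl7, gave 1.17, and it ranged from 0.551 to 1.22 over the scalings. miR-221-3p and miR-222-3p gave 0.866 and 0.785.

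Fibroblast miRNAs were near 1 at D5. The 5 arms of miR-199 and miR-214, a cluster of mesenchymal cells, ran from 0.973 for miR-199b-5p to 1.77 for miR-214-3p, which had 3325 and 3656 units. None passed 2-fold, and no member kept its direction under every scaling. The miR-29 family, which represses collagens, gave 0.558 for miR-29c-3p, 0.661 for miR-29a-3p and 1.18 for miR-29b-3p. miR-29a-3p and miR-29c-3p differ at 1 base. miR-210-3p, the miRNA most closely tied to hypoxia, had 290 and 244 units and a ratio of 0.873, and its direction changed over the scalings, from 0.653 to 1.16.

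Large families with general roles stayed within 2-fold with few exceptions. The 12 bright let-7 miRNAs, which oppose growth genes such as Lin28 and Hmga2, ran from 0.623 to 1.43, with 0 past 2-fold. The 7 bright members of the miR-17-92 and miR-106b-25 clusters, which favour proliferation, had a median of 0.982 and ran from 0.526 for miR-106b-5p to 1.10 for miR-92a-3p. The 5 members of the miR-99/100 and miR-125 families had a median of 0.913, the 6 of the miR-23/27/24 clusters 0.801, the 3 of the miR-181 family 0.894 and the 4 of the miR-130, miR-301 and miR-148 families 0.642. None of these 4 lists had a member past 2-fold. In the miR-30 family, 5 arms ran from 0.521 to 1.38, and the passenger arm miR-30c-1-3p stood apart with 295 and 992 units and a ratio of 3.98. It lies at chr4:120769546-120769567 on the minus strand, within the bounds of Nfyc, near miR-30e-5p, whose ratio was 0.687.

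Ratios of miRNAs with one seed were not always alike. Of the 13 seeds that at least 3 bright miRNAs share, all members were below 1 for 4 seeds, all above 1 for 1 seed and on both sides for 8. This split holds for the quantile-normalized ratios and depends on the scaling. For the seed AUUGCAC, for example, ratios ran from 0.777 to 1.16, and from 0.494 to 1.41 over the scalings. In the miR-15/16 family, which restrains cyclins and the cell cycle, miR-195a-5p had 4258 and 1202 units and a ratio of 0.449. Its neighbour miR-497a-5p gave 0.5001, just short of 2-fold, and both lie on the plus strand of chromosome 11, at chr11:70235062-70235082 and chr11:70234730-70234751. miR-16-5p, which differs from miR-195a-5p at 2 bases, had 6185 and 4980 units and a ratio of 1.43, and miR-322-5p, at chrX:53054306-53054327 on the minus strand, had 185 and 239 units and a ratio of 1.44. The direction of miR-16-5p and miR-322-5p changed over the scalings, whereas miR-195a-5p and miR-497a-5p stayed below 1. On the X chromosome miR-322-5p was joined by its neighbours miR-351-5p, with a ratio of 1.90, and miR-503-5p. The seed GGAAUGU of miR-1a-3p and miR-206-3p is also that of miR-6349, which gave 1.08. The Hox cluster miRNAs miR-10a-5p and miR-10b-5p, which differ at 1 base, gave 0.417 and 0.449, with 736 and 288 units for the first and 1751 and 587 for the second.

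The arms of one precursor mostly lay on the same side of 1. Arms were paired by their names. By this rule both arms were bright for 20 precursors, the arms of 16 of them were on the same side, and the median fold between the arms was 1.36. Over all 296 bright miRNAs, 136 were below 1 and 157 above 1. Arms near 1, such as those of miR-6965 with 1.09 and 1.1, have no settled side. Arms whose names differ were not paired, such as miR-30c-1-3p (3.98) and miR-30c-5p (0.521), or miR-24-2-5p and miR-24-3p. In 4 of these 20 precursors the arms were at least 2-fold apart. miR-7028-5p had 17880 units at D0 and 1950 at D5 and a ratio of 0.192, against 0.885 for miR-7028-3p, with 228 and 194 units. miR-665-3p had 128 and 425 units and a ratio of 4.85, against 1.16 for miR-665-5p. Over the scalings the ratio of miR-665-3p ran from 2.55 to 9.16. Under the D0 brightness level of 211 units lay miR-665-3p, miR-665-5p with 150 units at D0, and miR-346-3p with 134. miR-346-3p gave 2.10 against 0.794 for miR-346-5p, and miR-22-3p gave 1.09 against 0.530 for miR-22-5p. In the miR-346 and miR-22 precursors the arms lay on opposite sides of 1, and in those of miR-665 and miR-7028 on the same side. miR-7028-5p maps to chr5:114719515-114719537 on the plus strand, within the bounds of Tchp.

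The Dlk1-Dio3 imprinted cluster, a long run of miRNAs on chromosome 12 that is expressed from the maternal allele, had few bright arms. Of its 103 arms on the array 15 were bright, 14 of these were above 1, and 4 were at least 2-fold higher, with a median of 1.83. Among all 296 bright miRNAs, 157 were above 1 and 31 (10.5%) at least 2-fold higher. Only 5 of the 15 were bright on both arrays. The others passed on D5 alone, which favours high ratios, and these counts are no support for a difference of the cluster. miR-127-3p, which is antisense to Rtl1, had 390 and 802 units and a ratio of 2.34, with 2.56 and 2.14 from its spots. miR-541-5p had 122 and 252 units and a ratio of 2.97, which ran from 1.62 to 5.42 over the scalings. miR-376b-3p was not detected at D0. The positions were chr12:109592888-109592909 for miR-127-3p, chr12:109586368-109586387 for miR-665-3p and chr12:109742422-109742446 for miR-541-5p, all on the plus strand. Under every scaling 9 of the 15 stayed above 1. miR-341-5p, among the brightest spots on the array, had 52100 and 46920 units and a ratio of 1 set by the quantile step, and other scalings gave 0.675 to 2.64. miR-3072-5p, a neighbour outside the list, gave 0.913.

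The families from a large intron of Sfmbt2 (miR-297, miR-466, miR-467 and miR-669) had 22 bright arms of 71. Of these, 21 were above 1, against 157 of all 296 bright miRNAs, 0 were 2-fold higher, and the median was 1.36. Only 11 of the 22 were bright on both arrays, and the others passed on D5 alone, so these counts are no support for a difference. The highest was miR-669c-3p, with 198 and 337 units and a ratio of 1.87, and the lowest miR-669c-5p, with 339 and 328 units and a ratio of 0.945. Their direction was less settled than that of the Dlk1-Dio3 cluster, since 7 of the 22 stayed above 1 under every scaling. Among them miR-467b-3p and miR-467d-3p, and miR-669a-3p and miR-669a-3-3p, differ at 1 base, and signal shared within these pairs cannot be told apart.

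Of the 31 higher miRNAs, 22 belong to no list, among them several of very high GC content. A GC content of at least 60% was found for 16 of the 31 higher miRNAs, 5 of the 25 lower ones and 86 of the 296 bright miRNAs (29.1%). At a GC content of at least 80% there were 15 bright miRNAs, with a median ratio of 2.14, of which 9 were higher and 1, miR-7648-5p, lower. Of the 31 higher miRNAs 15 passed the brightness limit on D5 alone, which favours high ratios. These counts are therefore no support for a difference by GC content. For the 74 bright miRNAs with a GC content of at most 41.5% the median was 1.02, and for the 75 with at least 63.6% it was 1.24. miR-762 had 803 and 3308 units and a ratio of 5.65, and miR-2137 had 1771 and 5766 units and a ratio of 5.19. miR-5126, all of whose bases are G or C, had 4047 and 7475 units and a ratio of 3.09. miR-6968-5p gave 2.73 and miR-2861 gave 2.26. miR-3960, which also lies in this group, had 1425 and 2657 units and a ratio of 2.77. With scaling to the spike controls, miR-5126 gave 1.39, miR-3960 1.4 and miR-6968-5p 1.77, while miR-762 gave 3.12 and miR-2137 2.44. They map within the bounds of Bcl7c (miR-762, chr7:127708534-127708555), Zfp185 (miR-2137, chrX:72992113-72992133), Dner (miR-5126, chr1:84695890-84695911) and Phf1 (miR-6968-5p, chr17:26935472-26935493), all on the plus strand. miR-2861 is at chr2:32712819-32712837 on the minus strand. The part of GC content in these ratios was not tested.

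**Figure D4:**
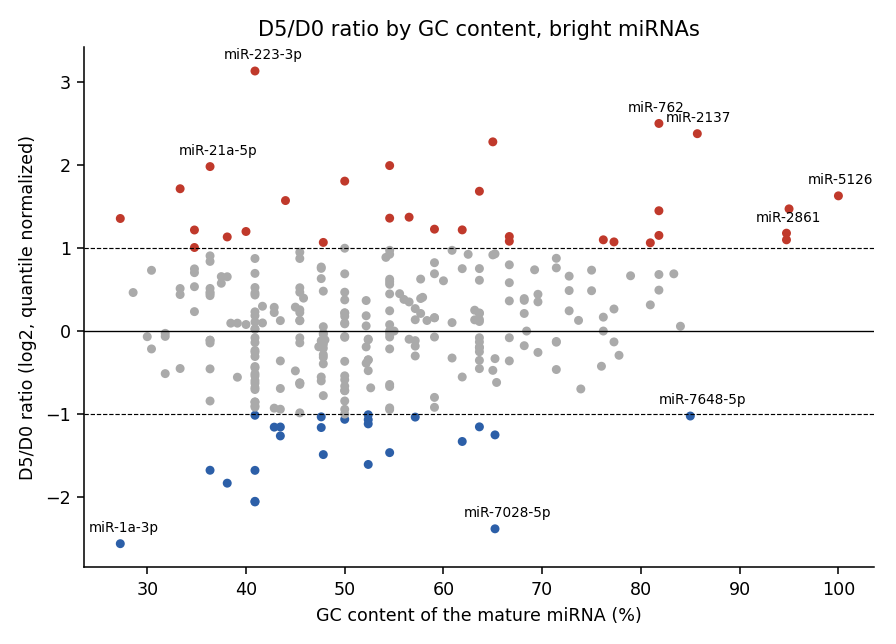
Log2 ratio of D5 over D0 (y axis) against the GC content of the mature miRNA in percent (x axis) for the 296 bright miRNAs. Red points are at least 2-fold higher, blue points at least 2-fold lower, and dashed lines mark 2-fold. Above 80% GC most points lie above 0, while miR-223-3p and miR-21a-5p are high at low GC content.

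Several other miRNAs with large ratios have no well-known role in skin. miR-5099 had 4500 and 7904 units and a ratio of 3.49, and its lowest ratio over the scalings was 1.32. Among the lower miRNAs, miR-708-5p had 881 and 289 units and a ratio of 0.357, and miR-7683-3p had 283 and 91.8 units and a ratio of 0.329, with spots at 0.430 and 0.251. The rest of the higher miRNAs were nearer to 2-fold, from 2.09 for miR-714 to 2.57 for miR-7056-5p, with miR-1224-5p, miR-7045-3p, miR-6538, miR-7221-3p, miR-149-3p, miR-3970 and miR-3473e between them. The rest of the lower ones ran from 0.420 for miR-7033-5p to 0.497 for miR-151-5p, with miR-128-3p, miR-676-3p, miR-1839-5p and miR-7648-5p between them.

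For miRNAs that were bright at D5 and not detected at D0, only a bound can be given, from the D5 level over the D0 level or the lowest detected level at D0, whichever is higher. After quantile normalization miR-711 was at least 2.93-fold higher, miR-503-5p at least 2.59-fold, miR-340-5p at least 2.29-fold, miR-376b-3p at least 2.19-fold, miR-300-3p at least 1.996-fold and miR-3095-3p at least 1.96-fold. The seventh, miR-7a-5p, was at least 1.96-fold higher. These bounds hold for that setting only, and over the scalings the lowest ratios of these miRNAs ran from 1.04 for miR-3095-3p to 1.53 for miR-711.

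The D3, D5 and D7 ratios share the D0 array, so values are set side by side and no likeness between days is read from them. Of the 31 miRNAs higher at D5, 21 were also at least 2-fold higher on D3 and 15 on D7. Of the 25 lower ones, 18 were at least 2-fold lower on D3 and 8 on D7. The share of all bright miRNAs past 2-fold on D3 and on D7 was not computed. These counts therefore have no background to be read against. The D5 level was above both the D3 and D7 levels for 9 of the 31, and below both for 12 of the 25. Both sets were chosen by their D5 level over D0, which favours this order. The share of all bright miRNAs with this order was not computed either, so nothing is read from it. The scanned intensities of miR-223-3p after wounding were 2804 units on D3, 1338 at D5 and 2155 on D7. Divided by D0, its normalized levels gave 15.3, 8.76 and 8.14. miR-21a-5p had 10300, 5253 and 12500 units and ratios of 5.70, 3.95 and 5.17. Both were thus higher than at D0 on all 3 days. miR-30c-1-3p had ratios of 27.1, 3.98 and 2.51, and miR-711 of 17.0, 3.21 and 1.501, so that their D3 values stood far above those of D5. Since miR-711 was not detected at D0, its ratios to D0 are not measured folds, and only the order of its days can be read. For the miRNAs with at least 80% GC the medians of the 3 days were 3.16, 2.14 and 1.24.

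Over D3, D5 and D7 in turn, the miR-200 family had medians of 0.381, 0.313 and 0.564, and the muscle list 0.299, 0.428 and 0.516. miR-200c-3p was above D0 on D3, with a ratio of 2.10, and below it on the later days, with 0.779 and 0.564. The medians of the Dlk1-Dio3 list were 1.17, 1.83 and 1.75, and miR-127-3p had ratios of 0.781, 2.34 and 1.55. Fibroblast miRNAs, near D0 on D5, had a median of 0.786 on D3 and 2.17 on D7. On D5 alone a few miRNAs stood out from both neighbouring days. At most 0.5 times the normalized level of D3 and of D7 were 4 bright miRNAs, miR-7028-5p, miR-7683-3p, miR-133b-5p and miR-7081-5p. miR-7028-5p had 17880 units at D0, then 24660, 1950 and 20380 on the later days, so that D5 is the one low array of the aged skin. miR-133b-5p had 1983, 3572, 535 and 26220 units. At least 2-fold above both days in normalized level were 2, miR-6965-5p and miR-5121. From D0 to D7 their scanned intensities were 2189, 767, 1593 and 1189 units, and 1105, 662, 1336 and 1152 units. In these units D5 was less than 2-fold above D7 for both, so the excess depended on the normalization. Against D0 the normalized ratios of these 2 miRNAs were 1.09 and 1.55, so they were not past 2-fold.

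**Figure D5:**
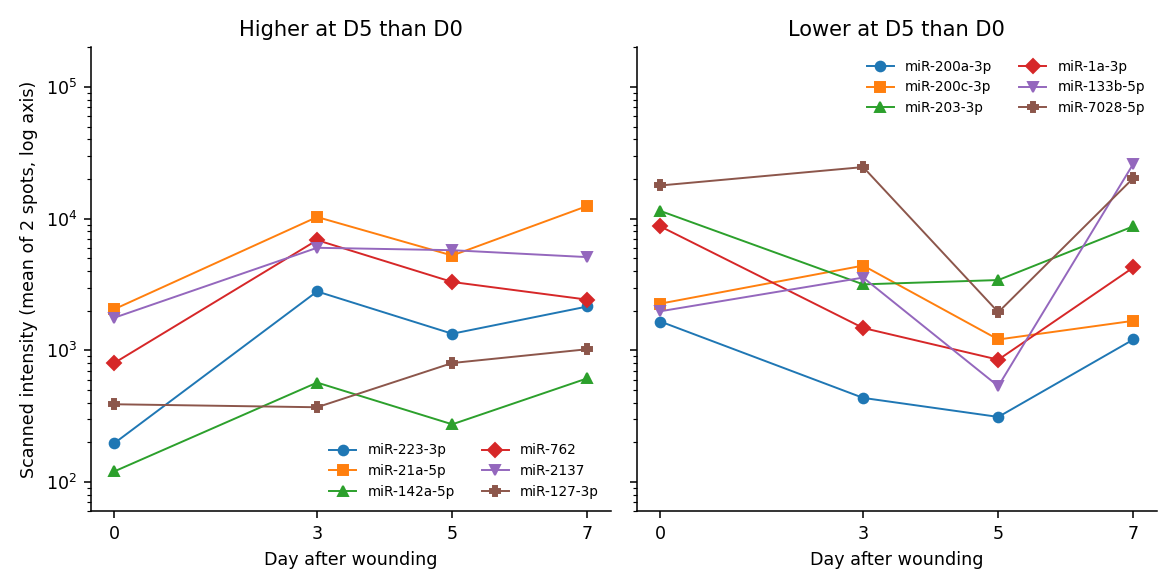
Scanned intensity, the mean of 2 spots, on a log axis (y) against the day after wounding (x) for 12 miRNAs in 2-year-old skin, 1 array a day and no normalization. On the left are 6 miRNAs higher at D5 than at D0 and on the right 6 that were lower. The D5 point of miR-7028-5p (1950) lies below its other 3 points (17880 to 24660), and miR-223-3p is above its D0 value of 197 on all 3 later days.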

How the data were processed

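Arrays were made by a service provider (LC Sciences), and samples were grouped by their labels. The authors deposited the scanned median intensity of every spot, linear and without normalization, beside local background columns that are empty, and a table of processed intensity whose normalization is not given in the sources used here. Scanned intensities of all spots were corrected by limma's normexp (offset 50), control spots were left out, and quantile normalization of the log2 values across 5 arrays was followed by the mean of 2 spots per miRNA. Values under 1 in the authors' table were set to 1. The number of arrays limits the precision, and no test was run. On simulated data 49 of 50 4-fold rises, 49 of 50 4-fold falls and 0 of 110 unchanged miRNAs among 210 bright miRNAs passed 2-fold. The simulated D5 array was a copy of D0, with less noise than the repeat spots showed and no shift in background. It therefore checks the processing steps only and gives no error rate for these data. The lists (21) came from general knowledge, and members and lists were chosen with earlier results of these data known. Named miRNAs were the 12 highest and 12 lowest ratios detected on both arrays with both spots and the authors' values on one side of 1, up to 6 bounds, 3 on each side of the brightness limit, list and seed members, and precursors with both arms bright. miRNAs singled out beyond these (miR-7a-5p, miR-2861, miR-7648-5p, miR-5121, miR-6965-5p, miR-7081-5p, miR-182-5p, miR-7239-3p, miR-351-5p, miR-10b-5p, miR-3072-5p and other miRNAs past 2-fold) were chosen after their values were seen. Near-identical pairs differ at 3 bases or fewer, and neighbours lie within 10000 bases. Alternatives covered scaling, background, source of values, spots, brightness and fold. Tools were R 4.3.3, limma 3.58.1, Python 3.11.15, pandas 2.3.3, numpy 2.4.6 and matplotlib 3.10.9.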

Additional observations from a re-analysis of the deposited data

Results flagged for a closer look

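miR-133b-5p lay on opposite sides of its D0 level on different days. Its ratio to D0 was 0.363 on D5 and 2.09 on D3, and 0.363 on D5 and 12.8 on D7. The other arm of the precursor, miR-133b-3p, stayed below D0 throughout, with 0.343 on D3, 0.521 at D5 and 0.499 on D7. Each day is 1 array, the ratios share the D0 array, and the difference between days was not tested.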

How the results depend on the processing

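No paired analysis was possible because D0 and D5 were measured on 1 array each. From 31 higher and 25 lower miRNAs, the counts went to 14 and 42 without normalization between arrays, 5 and 88 with the spike controls, 11 and 48 with the 5S probes, 13 and 47 with the scanned intensities as deposited, and 56 and 38 with the authors' processed values. Scaling to the 75th percentile gave 18 higher. By construction, 16 were higher among miRNAs bright on both arrays, and thresholds of 1.5-fold and 3-fold gave 72 and 59 and 10 and 8. The median ratio of 1.07 moved to 0.91 without normalization, 1.21 with the median of all miRNAs, 0.682 with the spikes, 0.878 with 5S, 0.887 as deposited and 0.932 among miRNAs bright on both arrays. The cause was not tested. Of 420 ratios of 30 named miRNAs under 14 alternatives, 171 moved by less than the spot SD, 249 moved further and 0 crossed 1. All 56 miRNAs past 2-fold stayed on their side of 1 under every setting run. The planned correction with local background columns was not run, since these columns are empty. Without a brightness filter the counts were 31 and 26. Of 1900 miRNAs, 589 were detected at D0 and 1071 at D5, so for most no ratio between detected levels can be given.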
